A study of Mus musculus with 33 samples.

Results

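Rnf17, Rec8 and Gtsf1 are genes of the germ line that were nonetheless read in mouse cardiomyocytes. These 3 genes, of 32245 in each table, were taken by symbol and selected on their measured normalized counts in double mutants, which earlier results had shown to shift. The labels give nuclear RNA of cardiomyocytes, the contractile cells of the heart, from libraries depleted of ribosomal RNA. Of 33 samples in 4 mouse lines, 27 libraries in 3 tables of normalized counts were used, and the other 6, of a line with the Ptpmt1 knockout alone, are not analysed here. Each line carries a Ptpmt1 knockout that the labels give as specific to cardiomyocytes. Its product is a phosphatase of the inner mitochondrial membrane that works in cardiolipin synthesis.

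The FST table had 12 libraries. These were 3 doubles with the Ptpmt1 knockout and a mutation of Eif2a, 3 with the Ptpmt1 knockout only, 3 with the Eif2a mutation only, and 3 controls. The PHT table had 9 libraries, with 2 doubles labelled as lacking Ptpmt1 and Hri, 3 with the Ptpmt1 knockout only, 2 with the Hri knockout only, and 2 controls. The PTGC table had 6 libraries, with 3 doubles labelled as lacking Ptpmt1 and Gcn2 and 3 controls. The single Hri knockout is labelled as specific to cardiomyocytes, whereas the Hri part of the double carries no such word. Neither the driver of the knockout, the kind of Eif2a mutation, the strain nor the age is stated in the labels. Hri and Gcn2 are kinases of eIF2 alpha, the initiation factor subunit that the labels call Eif2a. Its phosphorylation starts the integrated stress response, which lowers general translation and turns on Atf4 target genes. The question of the study, as its groups show, was what the loss of a kinase or a mutation of eIF2 alpha adds to the loss of Ptpmt1.

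Germline genes serve the making of eggs and sperm, and most are kept silent in the cells of the body by DNA methylation and by repressors such as the E2f6 and Mga complexes. Part of them act in the piRNA pathway, in which Piwi proteins loaded with small RNAs silence transposons in germ cells. Others build the chromosome axis of meiosis. Rnf17 is a RING finger and tudor domain protein of germ cell granules that mouse spermatids need to mature. Rec8 is the kleisin subunit of meiotic cohesin, the ring that holds sister chromatids together until the second meiotic division, in place of the mitotic kleisin Rad21. Gtsf1 is a small zinc finger protein that helps Piwi proteins to cleave their targets and is needed for transposon silencing in the mouse testis.

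Rnf17 and Rec8 lie on the same chromosome, 784.544 kb apart from start to start. In GRCm38, Rnf17 spans chromosome 14 from 56402581 to 56525032 on the plus strand, with 6241 exonic bases. Rec8 spans chromosome 14 from 55618037 to 55625395 on the plus strand, with 2935 exonic bases. Gtsf1 spans chromosome 15 from 103402405 to 103430470 on the minus strand, with 1390 exonic bases. No gene listed in the tables shares bases with any of them. The closest neighbour was Ipo4, an importin gene on the opposite strand that ends 5 bases from the end of Rec8. Whether reads were counted by strand is not stated in the material at hand. Reads that run past the end of Rec8 or Ipo4 could be placed with either.

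The starts of Rec8 and Gtsf1 are shown because promoters dense in CpG are where DNA methylation silences germline genes. Each covers 250 bases before and 50 bases after the RefSeq start on GRCm38.p6. Both RefSeq starts lie inside the gene spans given above and differ from the starts used for distances. The windows run 5′ to 3′ on the strand of the gene, with every CpG in capitals. They are chr14:55617916-55618215 (plus strand) and chr15:103430378-103430677 (minus strand).
Rec8: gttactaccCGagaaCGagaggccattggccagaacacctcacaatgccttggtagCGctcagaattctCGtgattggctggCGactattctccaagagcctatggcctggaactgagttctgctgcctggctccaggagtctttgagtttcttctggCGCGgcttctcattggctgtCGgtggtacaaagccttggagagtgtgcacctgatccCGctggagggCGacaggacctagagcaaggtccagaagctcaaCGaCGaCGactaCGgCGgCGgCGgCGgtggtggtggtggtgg
Gtsf1: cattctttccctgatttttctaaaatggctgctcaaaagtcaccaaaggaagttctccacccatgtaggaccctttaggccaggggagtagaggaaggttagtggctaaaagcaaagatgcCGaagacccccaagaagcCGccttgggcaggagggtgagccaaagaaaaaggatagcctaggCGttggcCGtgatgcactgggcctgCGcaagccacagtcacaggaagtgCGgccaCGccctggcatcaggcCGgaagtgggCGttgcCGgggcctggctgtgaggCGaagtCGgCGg
The Rec8 window held 18 CpGs, more than 70.3% of 32851 mouse promoters of the same length, and the Gtsf1 window held 13, more than 62.1%. The median promoter had 7. Of 4 motifs searched on both strands, TCCCGC, the core of the E2F site, matched once in the Rec8 window. That match lay 38 to 33 bases before the RefSeq start, inside the Rec8 span given above. TCCCGC occurred in 20.0% of all promoters. The E-box CACGTG (7.15% of promoters), the C/EBP-ATF composite TGATGNAA (3.97%) and the CRE TGACGTCA (1.79%) had no match in either window. Rnf17 is not in the promoter table.

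Depth ran from 1887978 to 12583868 reads in genes per library in FST, from 10739569 to 19405261 in PHT and from 10795644 to 19326112 in PTGC. FST double replicate 2 was the shallowest, and Eif2a mutant replicate 1 had the fewest genes with reads, 15157. Ptpmt1 itself separated the groups. The highest value in any library without Ptpmt1 was 49.2 in FST, 78.1 in PHT and 74.5 in PTGC, while the lowest in any library that kept it was 149.7 in FST, 241 in PHT and 287.5 in PTGC. Eif2ak1, the gene of Hri, read 476 and 545 in the PHT doubles, against 389 and 416 in the Hri knockouts and 548 and 590 in controls, and lay between 517 and 630 in the Ptpmt1 knockouts. The doubles thus overlapped the Ptpmt1 knockouts, and their difference of -0.16 ± 0.12 from controls on the log2(value + 1) scale did not pass (limma, adjusted p = 0.825). The level of Eif2ak1 therefore does not check the Hri label of the doubles. Both Hri knockouts lay below every control, but their difference of -0.50 ± 0.12 did not pass either (limma, adjusted p = 0.812). Eif2ak4, the gene of Gcn2, read 313 to 386 in the PTGC doubles, against 251 to 491 in controls, so its level does not check the Gcn2 label. All 15 cardiomyocyte markers were read, with a summed share of 4.86% to 7.8% of the signal. Nothing in the labels says how replicates relate to animals, so the p-values measure the spread between these libraries.

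The 3 genes passed the filter on low values in every table. Per kb of exon, mean levels in FST were 16.6 normalized counts for Rnf17, 32.8 for Rec8 and 30.2 for Gtsf1. They were 13.7, 65.9 and 64.1 in PHT and 20.5, 73.3 and 87.8 in PTGC, in the same gene order. Rnf17 stood at or below the 23.7 percentile of tested genes per kb in every table, Rec8 between the 38.4 and 48.8 percentiles and Gtsf1 between the 36.3 and 54.3 percentiles. All were therefore modest but read in every library, from 8 to 449 reads each.

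Germ cells themselves left little trace. Of 24 germ cell and gonad markers, 7 had no read in each table, among them the sperm protamine Prm1, the transition proteins Tnp1 and Tnp2 and the oocyte factor Figla. Dazl, which germ cells need, had 14, 3 and 13 reads over the whole FST, PHT and PTGC tables. Ddx4, the germ cell helicase Vasa, had 269, 247 and 225. The summed marker share, most of it from Kit and Sox9, which other cells also express, was 0.00699% to 0.0104% in FST doubles and 0.00857% to 0.0107% in FST controls. In PHT it was 0.00993% to 0.01% in doubles and 0.00993% to 0.0103% in controls, and in PTGC 0.00891% to 0.00952% in doubles and 0.00756% to 0.00879% in controls.

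**Figure D1:**
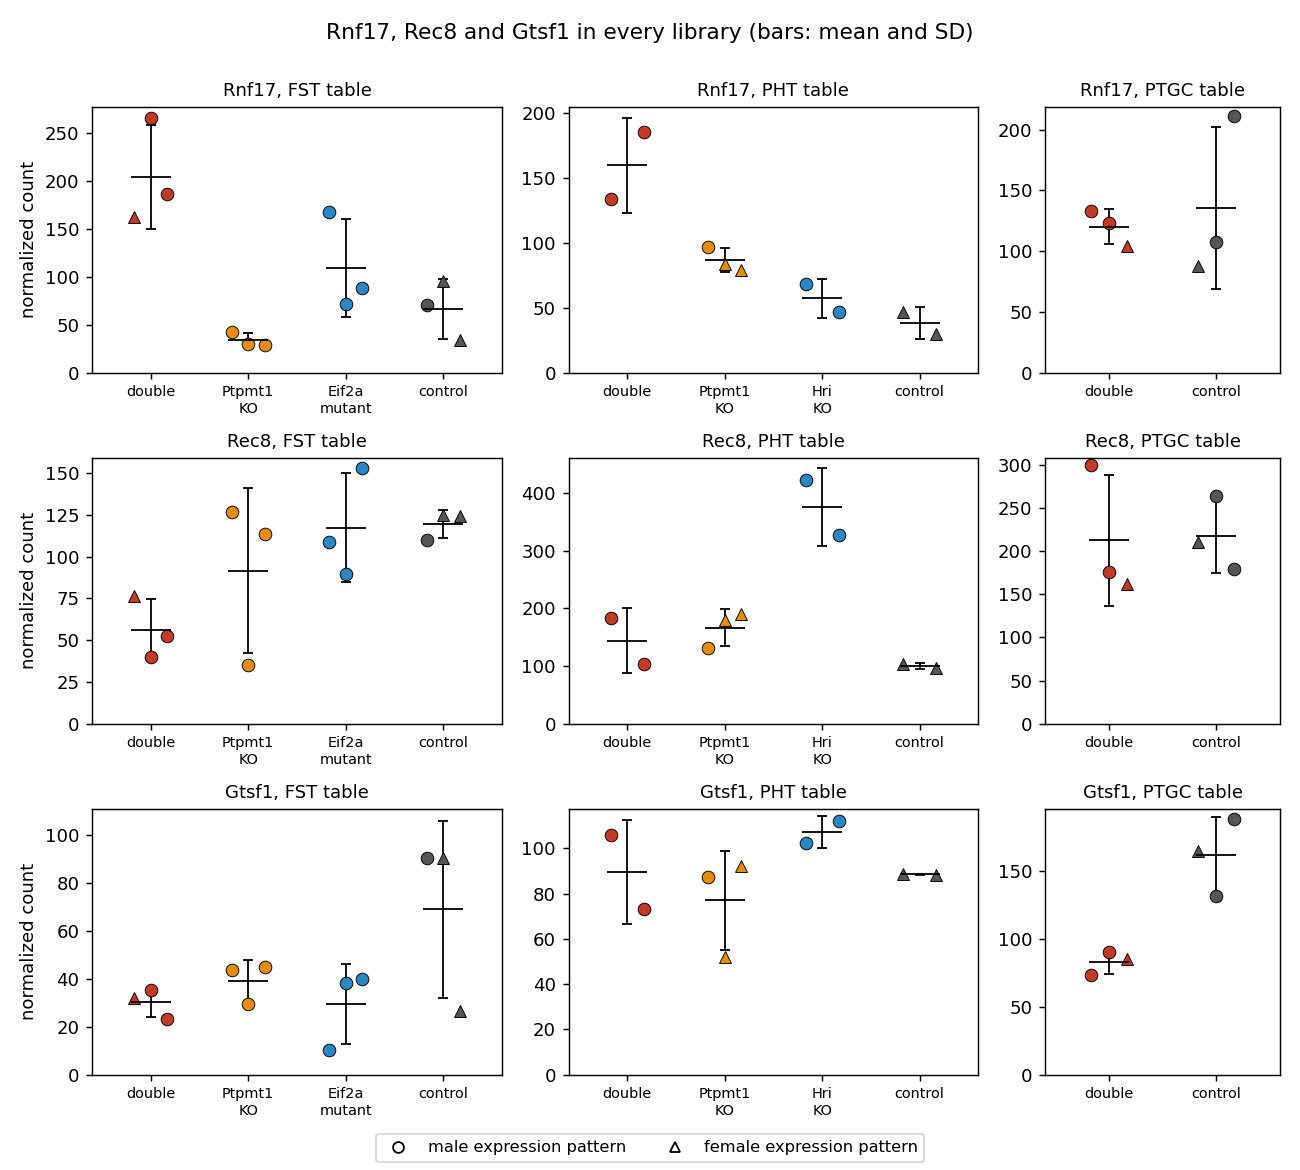
Normalized counts (vertical axis, from 0) of Rnf17, Rec8 and Gtsf1 in each of 27 libraries, by table and genotype, with group mean and SD; circles mark libraries with Y-linked expression and triangles those with Xist. The Rnf17 doubles stand above the Ptpmt1 knockouts and controls in FST and PHT but not in PTGC, Rec8 is highest in the Hri knockouts, and Gtsf1 is lower in the PTGC doubles than in every PTGC control.

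Rnf17 was higher in the FST doubles than in every control and every Ptpmt1 knockout. It read 161.9, 265.2 and 186.2 in the doubles, 42.16, 30.32 and 29.02 in the Ptpmt1 knockouts, 167.5, 71.47 and 88.13 in the Eif2a mutants, and 70.76, 95.58 and 33.82 in controls. The groups averaged 204 ± 54.0 in doubles, 33.8 ± 7.24 in Ptpmt1 knockouts, 109 ± 51.3 in Eif2a mutants and 66.7 ± 31.1 in controls (SD, n = 3 each). The lowest double overlapped only the highest Eif2a mutant, which was the library with the fewest genes read. The highest double, 265.2, came from the shallow double replicate 2 and rests on 60 reads. On the log2(value + 1) scale the doubles were 2.55 ± 0.36 (SE) above the Ptpmt1 knockouts, the 4th largest rise of 13896 genes tested. They were 1.69 ± 0.36 above controls, the 21st largest, and 0.97 ± 0.36 above Eif2a mutants. These values chose the gene and carry no test here. The order of the means was double, Eif2a mutant, control and Ptpmt1 knockout, and each group overlapped the next in that order.

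In PHT the doubles were again the highest group. Rnf17 read 134 and 185.7 in the doubles, 97.17, 84.09 and 79.03 in the Ptpmt1 knockouts, 68.07 and 46.72 in the Hri knockouts, and 47.1 and 29.82 in controls. No double overlapped a library of another group, and no Ptpmt1 knockout overlapped a control. The doubles were 2.04 ± 0.29 above controls on the log2 scale, 0.86 ± 0.26 above the Ptpmt1 knockouts and 1.47 ± 0.29 above the Hri knockouts. The mean was 160 ± 36.6 in doubles (SD, n = 2), against 38.5 ± 12.2 in controls (SD, n = 2). These differences, too, are a description. Of the marker lists for other cells of the heart, lymphocyte markers (10, of which Cd3e, Cd3g and Ms4a1 had no read in FST) made up 0.000371% to 0.000518% of the signal in FST doubles, 0.000228% to 0.000294% in Ptpmt1 knockouts and 0.000101% to 0.000235% in FST controls. The 10 mural cell markers made up 0.196% to 0.241% in FST doubles and 0.134% to 0.204% in Ptpmt1 knockouts. In FST controls they ran from 0.168% to 0.247%. Of these, Cspg4 was called lower in the FST Ptpmt1 knockouts than in control, at -0.53 ± 0.09 (limma, adjusted p = 0.0153). The 10 endothelial markers, all read, made up 0.159% to 0.162% in FST doubles, 0.141% to 0.159% in Ptpmt1 knockouts and 0.139% to 0.16% in controls. Eng, the endothelial coreceptor endoglin, was the 1 marker of that list called in the FST doubles, at 0.50 against the Ptpmt1 knockouts and 0.44 against controls (limma, adjusted p = 0.00887 and 0.0443). In PHT the 10 mural cell markers, all read, made up 0.18% to 0.188% in doubles, 0.165% to 0.185% in Ptpmt1 knockouts and 0.164% to 0.17% in controls, and the endothelial markers 0.135% to 0.136% in doubles, 0.139% to 0.14% in Ptpmt1 knockouts and 0.131% to 0.133% in controls. The 9 erythroid markers in the table made up 0.34% to 0.581% in PHT doubles, 0.0488% to 0.218% in Ptpmt1 knockouts and 0.26% to 0.325% in controls. Their median log2 difference between doubles and Ptpmt1 knockouts was 1.78, and 1 of them was called, the haemoglobin gene Hbb-bs at 2.28 ± 0.39 (limma, adjusted p = 0.0158). The part of these lists in the Rnf17 values was not tested.

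In PTGC the groups overlapped throughout. Rnf17 read 132.9, 123.5 and 104.2 in the doubles, against 87.65, 107.7 and 211.4 in controls. The difference was -0.07 ± 0.27 on the log2 scale. With 1 control at 211.4 and the others at or below 107.7, the controls spread more widely than the doubles. The PTGC table holds no single mutant.

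Loss of Ptpmt1 alone gave opposite signs for Rnf17 in the 2 tables that have that group, and neither passed the test. Against control, the FST Ptpmt1 knockouts stood at -0.86 ± 0.36 on the log2 scale (limma, adjusted p = 0.309) and the PHT Ptpmt1 knockouts at 1.18 ± 0.26 (limma, adjusted p = 0.112). The FST groups overlapped and the PHT groups did not. The Eif2a mutation alone gave 0.72 ± 0.36 (limma, adjusted p = 0.639) and the Hri knockout alone 0.58 ± 0.29 (limma, adjusted p = 0.9998), with overlapping groups in both.

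Sex was not balanced between groups. By Xist and Y-linked genes, 2 of 3 FST doubles, 3 of 3 Ptpmt1 knockouts, 3 of 3 Eif2a mutants and 1 of 3 controls had a male pattern. In PHT the male pattern was seen in 2 of 2 doubles, 1 of 3 Ptpmt1 knockouts, 2 of 2 Hri knockouts and 0 of 2 controls, and in PTGC in 2 of 3 of each group. Among male-pattern FST libraries Rnf17 averaged 225.7 in 2 doubles, 33.8 in 3 Ptpmt1 knockouts, 109 in 3 Eif2a mutants and 70.8 in the 1 control. The 1 double with a female pattern read 161.9, against 95.58 and 33.82 in the female controls. In PHT no double and no Hri knockout shared its sex pattern with a control, so that sex and genotype cannot be told apart in those comparisons. Within the male pattern in PHT, Rnf17 read 134 and 185.7 in the doubles and 97.17 in the 1 Ptpmt1 knockout. The Hri knockouts read 68.07 and 46.72. Within the female pattern it read 84.09 and 79.03 in Ptpmt1 knockouts, against 47.1 and 29.82 in controls.

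Rec8 behaved differently from Rnf17. In FST it was lower in the doubles than in every control and every Eif2a mutant. The doubles read 76.26, 39.78 and 52.69, the Ptpmt1 knockouts 126.5, 35.06 and 113.6, the Eif2a mutants 109.1, 89.9 and 153.2, and the controls 110.3, 124.7 and 124.2. The mean was 56.2 ± 18.5 in doubles and 120 ± 8.21 in controls (SD, n = 3 each). On the log2 scale the doubles were -1.12 ± 0.38 from controls, -1.06 ± 0.38 from Eif2a mutants and -0.55 ± 0.38 from Ptpmt1 knockouts, whose lowest library fell below all doubles. These differences carry no test, because shifts in doubles chose the gene. The value 39.78 came from the shallow double replicate 2 and rests on 9 reads. Without that library and Eif2a mutant replicate 1, an alternative chosen after seeing the data, the difference from controls was -0.90.

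In PHT the Hri knockouts, not the doubles, stood apart for Rec8. It read 183.7 and 103.8 in the doubles, 130.8, 179.8 and 190.1 in the Ptpmt1 knockouts, 423.6 and 327.8 in the Hri knockouts, and 103.6 and 96.61 in controls. Both Hri knockouts lay above the other 7 libraries. The rise against control was 1.89 ± 0.25 on the log2 scale (limma, adjusted p = 0.0307), a 3.7-fold rise on that scale. Rec8 was 1 of 3 members tested and the only gene of 14965 called higher in that comparison, where 0.00668% of genes were called higher. The members were proposed with such results known, so the call is not independent support. Over the alternatives that kept all libraries, the adjusted p of Rec8 ran from 5.96e-09 to 0.151 (limma, edgeR or DESeq2). The call was lost in the fit with a sex term (limma, adjusted p = 0.151), where the log2 difference was largest, at 2.38. No Hri knockout shared its sex pattern with a control. It was also lost without either control (0.17 and 0.421), without either Hri knockout (0.173 and 0.0591), without Ptpmt1 knockout replicate 2 (0.066) and with no filter (0.0565), while the log2 difference stayed between 1.70 and 2.38.

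Among PHT libraries of the male pattern Rec8 read 183.7 and 103.8 in the 2 doubles and 130.8 in the 1 Ptpmt1 knockout, against 423.6 and 327.8 in the Hri knockouts. The doubles were -1.43 ± 0.25 from the Hri knockouts on the log2 scale and 0.46 ± 0.25 from controls, and their lower library exceeded the higher control by less than 1 normalized count. Macrophage markers, all 10 of them read, made up 0.00393% to 0.00646% of the signal in Hri knockouts and 0.00252% to 0.00277% in controls, and their part in the Rec8 result was not tested. They ran from 0.00262% to 0.00715% in the doubles. Endothelial markers were at 0.142% to 0.145% in Hri knockouts and 0.131% to 0.133% in controls, and this, too, was not tested. In bulk libraries fewer cells of a type and less RNA per cell cannot be told apart.

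Neither the Ptpmt1 knockout nor the Eif2a mutation alone moved Rec8 past the threshold. The Ptpmt1 knockouts stood at 0.71 ± 0.23 from control in PHT (limma, adjusted p = 0.694) without overlap and at -0.58 ± 0.38 in FST (limma, adjusted p = 0.551). The FST value was 0.00 without Ptpmt1 knockout replicate 2, the library at 35.06. The Eif2a mutants stood at -0.06 ± 0.38 (limma, adjusted p = 0.974). In PTGC, Rec8 read 299.9, 175.6 and 162.2 in the doubles, against 210.6, 263.5 and 179.4 in controls, a log2 difference of -0.07 ± 0.22.

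Gtsf1 was lower in the PTGC doubles. It read 73.48, 89.85 and 84.86 in the doubles, against 164.4, 131.7 and 187.9 in controls, with means of 82.7 ± 8.39 in doubles and 161 ± 28.2 in controls (SD, n = 3 each). Every double lay below every control, and the log2 difference of -0.95 ± 0.17 was the 30th largest fall of 14128 genes tested. Shifts in doubles chose the gene, so this difference and its rank are a description and carry no test. Within the male pattern the means were 81.7 in 2 doubles and 160 in 2 controls, and the female double read 84.86 against 164.4 in the female control. The 10 mural cell markers, all read, made up 0.185% to 0.213% of the signal in doubles and 0.224% to 0.231% in controls. Macrophage markers made up 0.00295% to 0.00377% in doubles and 0.00251% to 0.00278% in controls, and lymphocyte markers 0.00029% to 0.000344% in doubles and 0.000221% to 0.000242% in controls. Erythroid markers made up 0.0906% to 0.122% in doubles and 0.103% to 0.281% in controls, with a median log2 difference of -0.69. The part of these lists in the result was not tested.

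In FST, Gtsf1 did not separate the groups. The doubles read 31.91, 35.36 and 23.42, the Ptpmt1 knockouts 43.75, 29.37 and 44.8, the Eif2a mutants 10.15, 38.32 and 39.87, and the controls 90.51, 90.6 and 26.47. A pair of controls stood above all other libraries and the third below most of them. The difference of the doubles from controls was -0.99 ± 0.50 on the log2 scale. The Ptpmt1 knockouts stood at -0.63 ± 0.50 from control (limma, adjusted p = 0.648) and the Eif2a mutants at -1.23 ± 0.50 (limma, adjusted p = 0.573). The last difference ran from -1.81 to -0.61 with 1 library left out and was -0.61 without Eif2a mutant replicate 1, whose value of 10.15 rests on 8 reads.

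PHT showed no displacement of the Gtsf1 doubles beyond the spread. The values were 105.9 and 73.33 in doubles, 87.2, 51.96 and 92.04 in Ptpmt1 knockouts, 102.1 and 112.1 in Hri knockouts, and 88.55 and 88.26 in controls. The controls lay between the doubles, and the log2 difference was 0.00 ± 0.28. Against control the Hri knockouts were at 0.27 ± 0.28 without overlap (limma, adjusted p = 0.9998) and the Ptpmt1 knockouts at -0.24 ± 0.26 (limma, adjusted p = 0.9993).

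**Figure D2:**
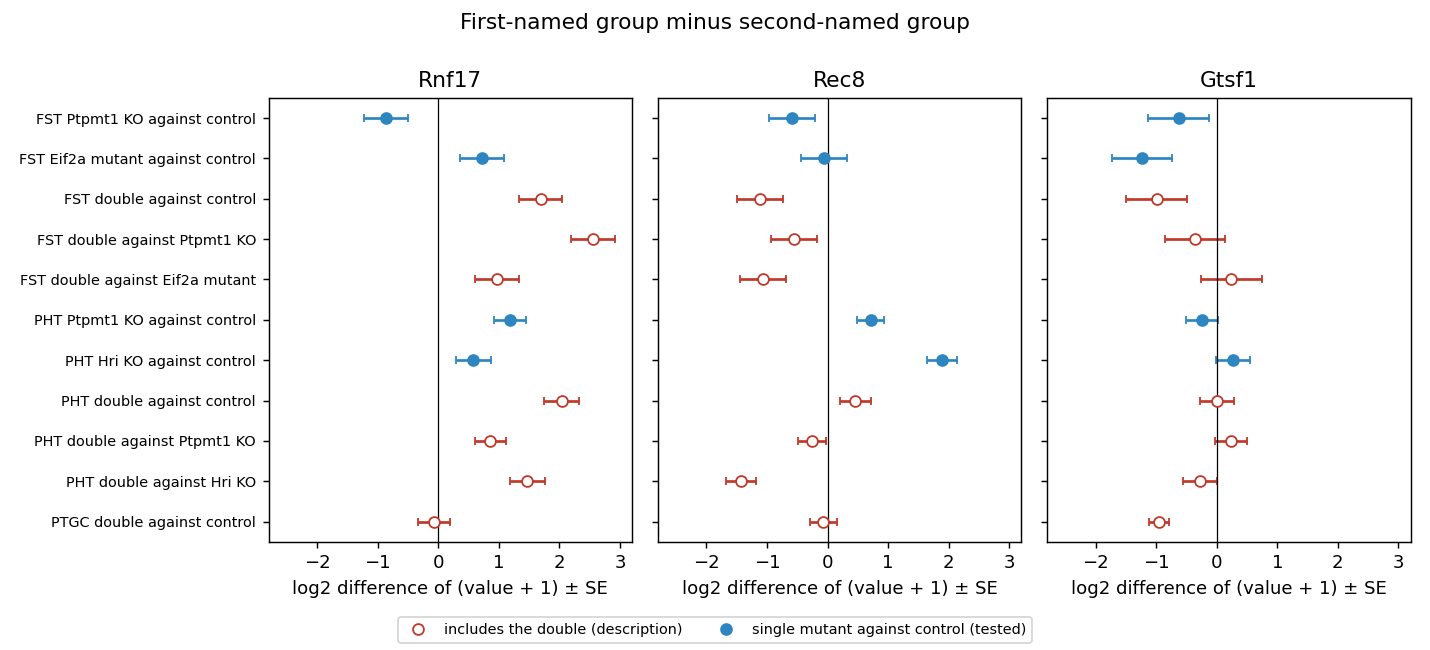
Log2 difference of (value + 1) with its SE (horizontal axis) for each of 11 comparisons, one panel per gene; open red points include a double and carry no test, filled blue points are single mutants against control. Rnf17 in FST runs from -0.86 for the Ptpmt1 knockout against control to 2.55 for the double against the Ptpmt1 knockout, and Rec8 reaches 1.89 in the Hri knockout.

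Over the 3 genes, the single mutants gave 1 call in 4 comparisons. By limma 0 of 3 were called in the FST Ptpmt1 knockouts against control, where 0.504% of all genes were called in either direction, with 1 at an unadjusted p under 0.05 (13.4% of all genes) and 0 by edgeR. DESeq2 gave no adjusted p for the 3 genes there. By limma 0 of 3 were called in the Eif2a mutants (0.036% of genes called), with 1 at an unadjusted p under 0.05 (7.97% of all genes), and 0 by edgeR and by DESeq2. In the PHT Ptpmt1 knockouts 0 of 3 were called by limma (0.301% of genes called), with 2 at an unadjusted p under 0.05 (4.79% of all genes), and 0 by edgeR and by DESeq2.

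Groups without overlap were common among all genes, and for the doubles they say nothing beyond the choice of the genes. Against control in FST, 1 of 3 lay wholly higher (9.64% of genes) and 1 wholly lower (9.87%). Against the FST Ptpmt1 knockout 1 lay higher (8.95%), and against the Eif2a mutant 1 lower (8.23%). In PHT the doubles lay wholly above controls for 2 of 3 (16.2%), above the Ptpmt1 knockouts for 1 (11.9%), and against the Hri knockouts above for 1 and below for 1 (15.6% each). In PTGC 1 lay lower (9.05%). For the single mutants, 2 of 3 lay wholly above controls in the PHT Ptpmt1 knockouts (12.0%) and 2 of 3 in the Hri knockouts (15.0%).

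Few other genes of the same pathways were called. The piRNA pathway list held 28 other genes and the meiotic chromosome list 39, of which 32 were tested in FST, 36 in PHT and 34 in PTGC. In the FST doubles against control 0 were called by limma (background 0.144%), with 6 at an unadjusted p under 0.05 (10.1% of all genes), 0 by edgeR and 1 by DESeq2. In the PHT doubles against control 0 were called (background 0.0267%), with 4 at an unadjusted p under 0.05 (6.58% of all genes), and 0 by edgeR and by DESeq2. In the PTGC doubles 1 was called by limma (background 0.743%), 1 by edgeR and 3 by DESeq2. At an unadjusted p under 0.05 there were 6 (11.5% of all genes). The limma call was Mei4, described below, which passed the filter on low values there through the doubles alone. The piRNA list had medians of 0.01, -0.01 and -0.13 on the log2 scale in the FST, PHT and PTGC doubles against control, and the meiotic list 0.06, 0.24 and -0.03. The median of all tested genes was 0.00 in each.

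The single mutants against control gave 0 calls by limma in these lists, 0 by edgeR and 0 by DESeq2. At an unadjusted p under 0.05 there were 1 of 32 in the FST Ptpmt1 knockouts (13.4% of all genes), 5 of 36 in the PHT Ptpmt1 knockouts (4.79%), 3 of 32 in the Eif2a mutants (7.97%) and 1 of 36 in the Hri knockouts (3.24%, with 0.02% of all genes called). Against the PHT Ptpmt1 knockouts 0 were called in the doubles (0.327% of genes called), with 5 at an unadjusted p under 0.05 (8.29% of all genes), 0 by edgeR and 1 by DESeq2. Against the Hri knockouts 0 were called in the doubles (0.02% of genes called), with 7 at an unadjusted p under 0.05 (5.83% of all genes), and 0 by edgeR and by DESeq2. Against the Eif2a mutants 0 were called in the FST doubles (0.0072% of genes called), and 0 by edgeR and by DESeq2. At an unadjusted p under 0.05 there were 2 (8.14% of all genes). Against the FST Ptpmt1 knockouts 1 was called in the doubles (0.878% of genes called), and 1 by edgeR and by DESeq2. There, 3 had an unadjusted p under 0.05 (13.8% of all genes).

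Both genes called by limma came from the meiotic chromosome list, each in a different comparison. 4930447C04Rik, known as Six6os1, a part of the synaptonemal complex, rose in the FST doubles to 101 ± 25.3, against 39.1 ± 6.58 in the Ptpmt1 knockouts (SD, n = 3 each). Its log2 difference was 1.34 ± 0.28 (limma, adjusted p = 0.0355), in a comparison where 0.878% of genes were called. The call was lost without any 1 double or Ptpmt1 knockout, without control replicate 2 and without Eif2a mutant replicate 3 (0.0549 to 0.15), and with no filter (0.0767). In PHT the same gene stood at 41.9 and 43.23 in the doubles, against 83.03 to 119.6 in the Ptpmt1 knockouts, a log2 difference of -1.15 ± 0.31 that did not pass (limma, adjusted p = 0.203).

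Mei4, which takes part in making the DNA breaks of meiotic recombination, averaged 24.7 ± 4.15 in the PTGC doubles and 2.63 ± 1.39 in controls (SD, n = 3 each). It passed the filter on low values there through the doubles alone, with 3 of 3 at 10 or more, against 0 of 3 controls, so that the test was run on a gene that had to differ. The log2 difference was 2.90 ± 0.42 (limma, adjusted p = 0.00495), and the call was lost without double replicate 3 (adjusted p = 0.0814). In the other tables its highest values were in the Ptpmt1 knockouts. In PHT it read 0 and 10.48 in the doubles and 7.52 to 20.01 in the Ptpmt1 knockouts, against 0.942 and 1.193 in controls, a difference between Ptpmt1 knockout and control of 2.74 ± 1.05 that did not pass (limma, adjusted p = 0.946). In FST it was too low to test, with 0 to 5.854 in the doubles and 9.546 to 18.93 in the Ptpmt1 knockouts, against 0 to 0.8312 in controls.

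**Figure D3:**
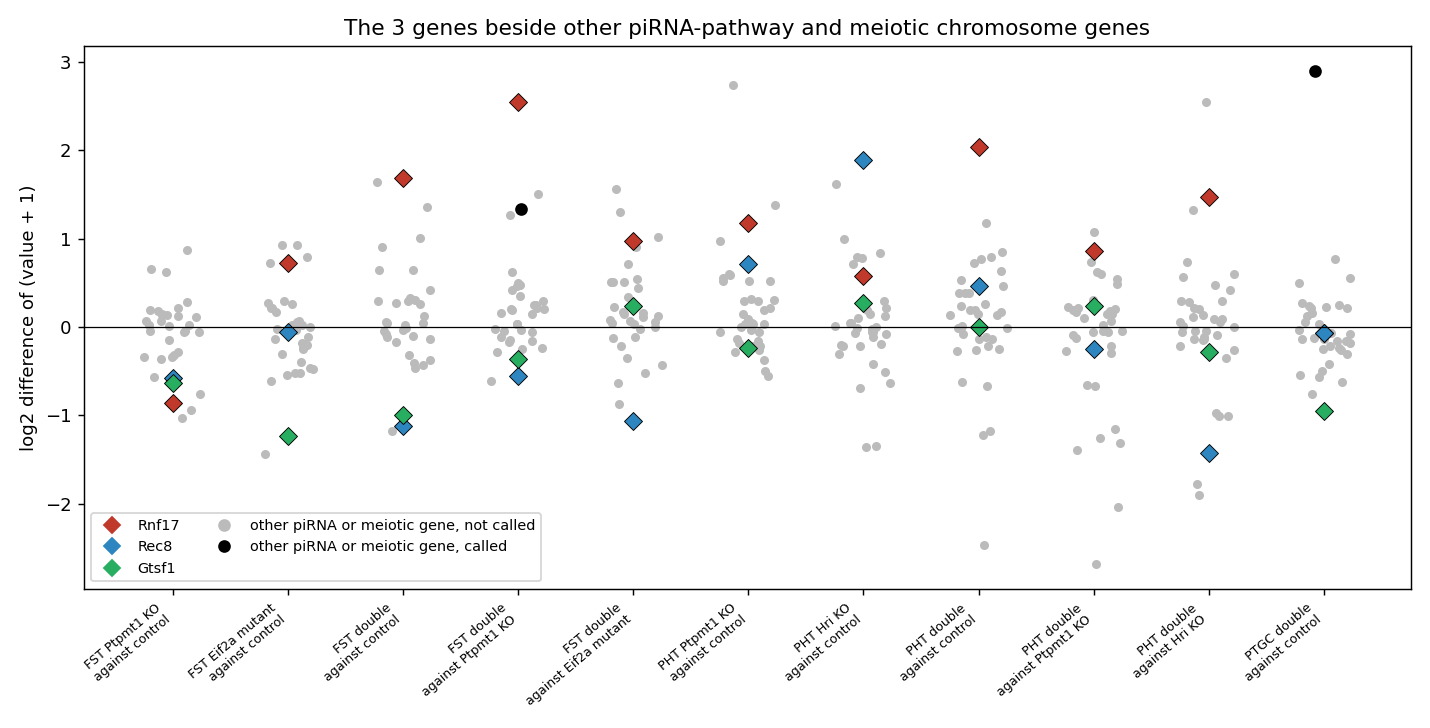
Log2 difference of (value + 1) (vertical axis) in 11 comparisons for Rnf17, Rec8 and Gtsf1 (diamonds) and for the other tested genes of the piRNA pathway and meiotic chromosome lists (grey dots, black where called by limma). The only black dots are 4930447C04Rik at 1.34 in the FST double against the Ptpmt1 knockout and Mei4 at 2.90 in PTGC.

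None of the relatives of Rnf17 and Gtsf1 fixed by name (Tdrd1, Tdrd7, Tdrkh, Gtsf1l, Piwil1, Piwil2 and Piwil4) was called by limma in any of the 11 comparisons. Tdrd9, a tudor domain helicase of the piRNA pathway list that is named here after its values were seen, was lowest in the PHT doubles. It averaged 2.51 ± 0.492 in the doubles (SD, n = 2), 21.6 ± 4.23 in the Ptpmt1 knockouts (SD, n = 3), 12.5 ± 8.76 in the Hri knockouts and 18.6 ± 4.36 in controls (SD, n = 2 each). Its difference of -2.68 ± 0.54 between doubles and Ptpmt1 knockouts did not pass by limma (adjusted p = 0.0542), but did by DESeq2 at -3.09 (adjusted p = 0.0476) and by limma without Hri knockout replicate 1 or 2 (adjusted p = 0.0291 and 0.0386). The doubles rest on 5 reads in all. Tdrd7, a tudor protein like Rnf17 that is also made in somatic cells, averaged 275 ± 25.7 in FST doubles and 227 ± 1.92 in controls, 0.27 ± 0.12 apart on the log2 scale (limma, adjusted p = 0.475). Tdrd1 averaged 20.5 ± 8.89 in FST doubles and 26.4 ± 5.92 in controls, and Tdrkh 61.2 ± 24.4 in doubles and 62.8 ± 10.8 in controls. Of the Piwi proteins that Gtsf1 serves, Piwil1 and Piwil4 had no more than 3 reads in any group, and Piwil2 averaged 13.0 ± 4.74 in FST doubles and 6.28 ± 1.61 in controls. That Piwil2 difference of 0.91 ± 0.58 did not pass (limma, adjusted p = 0.62), and in PHT it had the other sign, -1.22 ± 0.62 (limma, adjusted p = 0.767). Gtsf1l, the closest homologue of Gtsf1, had 1 read over all libraries, and its neighbour Gtsf2 had none.

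Stag3, Smc1b and Rad21, the fixed relatives and partners of Rec8, were not called by limma either. Stag3, the meiotic cohesin subunit that binds Rec8, averaged 69.5 ± 16.3 in Hri knockouts and 57.6 ± 9.58 in PHT controls (SD, n = 2 each), a log2 difference of 0.26 ± 0.28 (limma, adjusted p = 1.0). Smc1b, the meiotic SMC subunit, was too low to test, at 1.261 and 9.345 in Hri knockouts and 9.42 and 10.73 in controls. Rad21, the mitotic kleisin that Rec8 replaces in meiosis, differed by -0.03 ± 0.09 in the same comparison (limma, adjusted p = 1.0). In the FST doubles against control Rad21 stood at -0.27 ± 0.07 (limma, adjusted p = 0.19). All 16 mitotic cohesin genes were tested in every table and 0 were called by limma in any of the 11 comparisons. Of 30 repressors of germline genes, all tested, 0 were called in any comparison, and 0 of the 5 tested among 25 germline genes silenced by DNA methylation.

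Of the other genes near the 3 start sites, 1 was called. The 3 genes themselves were left out of these counts, though Rnf17 and Rec8 lie within 1 Mb of each other. Within 1 Mb of the Rnf17 start, 39 other genes were tested in FST, 41 in PHT and 38 in PTGC. Around Rec8, 51, 53 and 50 were tested, and around Gtsf1, 18, 21 and 19. Pck2, the mitochondrial phosphoenolpyruvate carboxykinase and a known Atf4 target, was the only one called in any comparison. It lies 77.8 kb below the Rec8 start and was higher in the Ptpmt1 knockouts than in control by 0.92 in FST and 0.84 in PHT on the log2 scale (limma, adjusted p = 0.00548 and 0.00815). Its PTGC doubles were 1.45 above control (limma, adjusted p = 1.95e-05). It was lower in the doubles than in the Ptpmt1 knockouts, at -1.01 in FST and -0.89 in PHT (limma, adjusted p = 0.00379 and 0.005). Ipo4, next to Rec8, averaged 929 ± 50.3 in Hri knockouts and 1046 ± 144 in PHT controls (SD, n = 2 each). Cenpj, next to Rnf17, averaged 229 ± 32.9 in FST doubles and 270 ± 43.0 in Ptpmt1 knockouts (SD, n = 3 each).

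**Figure D4:**
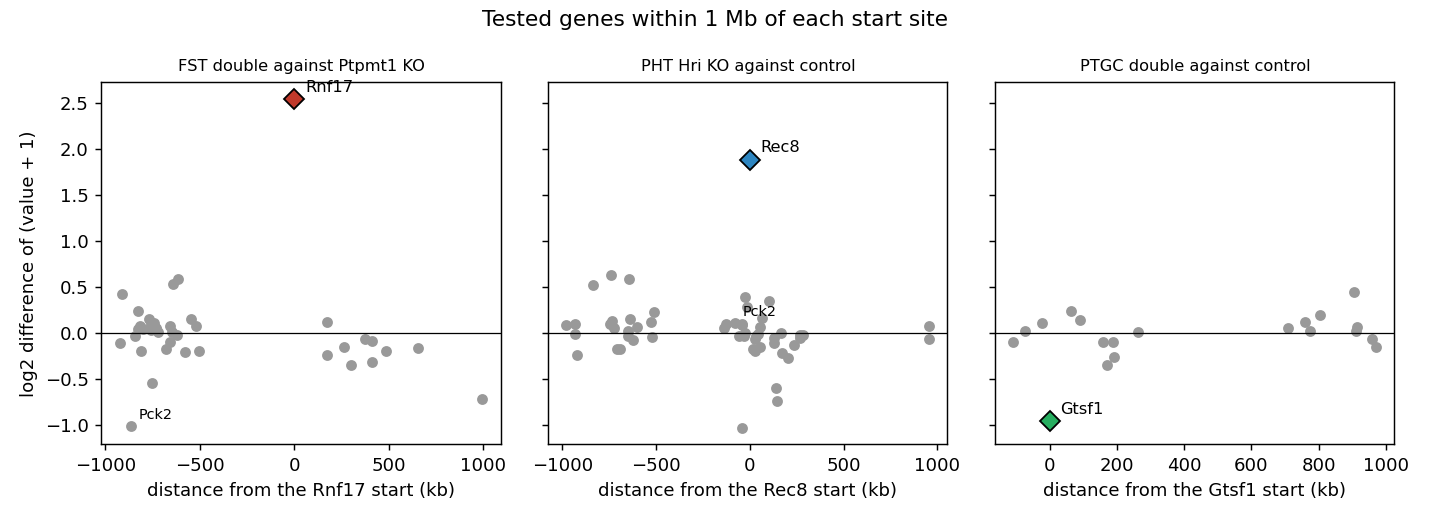
Log2 difference of (value + 1) (vertical axis) against distance from the start of Rnf17, Rec8 or Gtsf1 in kb (horizontal axis), in 1 comparison for each gene. Grey dots are the tested genes within 1 Mb other than Rnf17, Rec8 and Gtsf1, and the diamond is the gene itself. The grey dots lie between -1.02 and 0.63, with Pck2 at -1.01 in the FST panel.

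The 3 genes did not vary together. Over 27 libraries, centred within each table, Pearson's r was -0.189 for Rec8 with Rnf17, -0.196 for Gtsf1 with Rnf17 and 0.217 for Gtsf1 with Rec8. Among 13769 genes tested in all tables, the profile most like that of Rnf17 was that of Rab6b, a small GTPase of the Golgi (r = 0.797). It was followed by Stxbp2, Akr1e1, Tnfrsf1b and Samd9l (r = 0.764 to 0.729). Rab6b averaged 84.3 ± 7.53 in FST doubles, 24.1 ± 1.36 in Ptpmt1 knockouts and 54.1 ± 25.4 in controls.

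For Rec8 the most alike was the long noncoding RNA 2410018L13Rik on chromosome 12 (r = 0.828), followed by Slc1a1, Ppp2cb, Trib2 and Sox11 (r = 0.77 to 0.719). In PHT 2410018L13Rik averaged 36.2 ± 39.0 in doubles, 82.8 ± 13.4 in Ptpmt1 knockouts, 148 ± 14.6 in Hri knockouts and 16.6 ± 3.50 in controls. Its difference of 3.09 ± 0.59 between Hri knockouts and controls did not pass (limma, adjusted p = 0.27). For Gtsf1 the most alike was Plaat3, a phospholipase and acyltransferase (r = 0.852), followed by Mapre2, Hsdl2, Hspa12a and Ccdc85a (r = 0.838 to 0.817). These libraries share groups and depth, and r is given as a description.

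**Figure D5:**
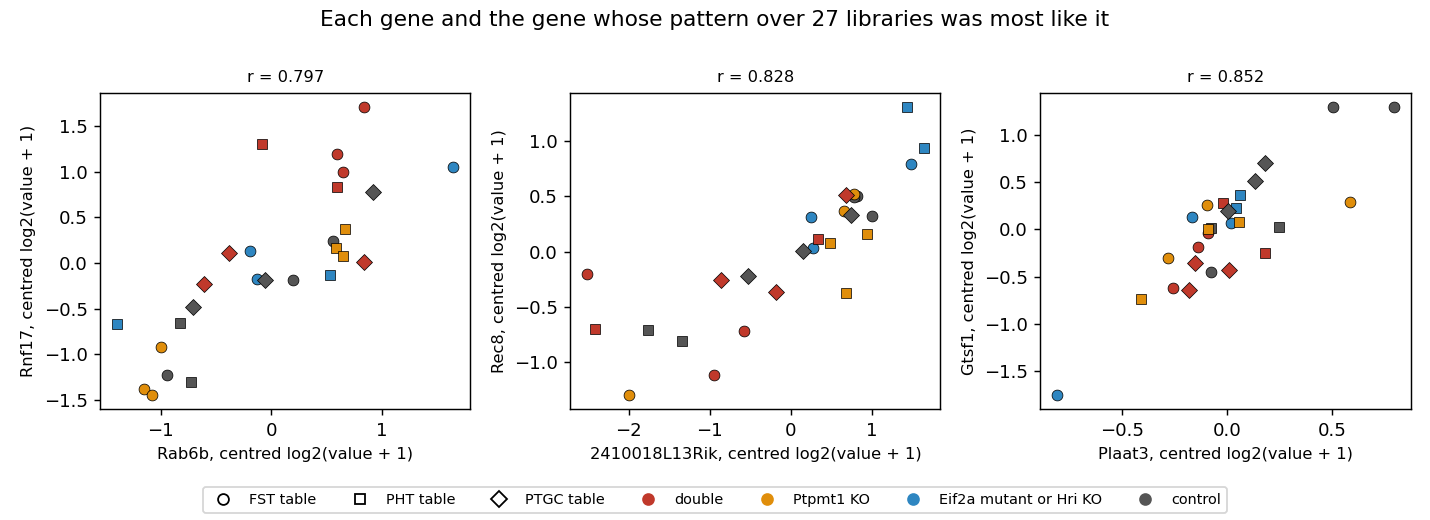
Log2(value + 1) centred within each table, for Rnf17, Rec8 and Gtsf1 (vertical axes) against the gene most like each (horizontal axes), 1 point per library, with shape for the table and colour for the genotype. The values of each pair rise together, with r = 0.797 for Rab6b, 0.828 for 2410018L13Rik and 0.852 for Plaat3.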

How the data were processed

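Nuclear RNA of mouse cardiomyocytes was sequenced after ribosomal RNA depletion, per the labels' protocols. The authors deposited a normalized signal per gene and library in 3 tables, and the submitters' processing notes name STAR 2.5.3a, DESeq2 1.12.4 and mm10 without roles. No source at hand names the counter, annotation or strand setting. The deposited signal values were whole multiples of 1 step per column, and dividing by it gave whole reads (within 0.1) for 100% of values. These recovered reads give the depths and fed the count tests. The tables were normalized separately, so tests stayed within a table. Columns were matched by title, with 0 left without a sample.

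A gene was tested where the number of libraries with a value of 10 or more was no smaller than the smallest group (13896 genes in FST, 14965 in PHT, 14128 in PTGC). The test was limma 3.58.1 (R 4.3.3) on log2(value + 1), with 1 fit per table, a variance trend, two-sided tests and Benjamini-Hochberg adjustment, threshold 0.05. Differences are on that scale, which understates changes of low genes. Called means past that threshold. Percentages of genes called or without overlap are over all genes tested. Alternatives were pseudocounts of 0.5 and 5, no filter, TMM scaling, edgeR 4.0.16, DESeq2 1.42.0, a sex term and each library left out.

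Named genes were the 3 genes, list genes that were called (up to 4 per list and comparison), fixed homologues, neighbours, and the 5 genes most alike by Pearson's r. Targeted genes were added as a check of the labels. The 3 genes and all lists were chosen with earlier results of these data known. The 3 were chosen on shifts in doubles, so comparisons with a double carry no test for them. Gene positions are from GENCODE vM21 (GRCm38).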

Additional observations from a re-analysis of the deposited data

Results flagged for a closer look

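Rnf17 averaged below control in the FST Ptpmt1 knockouts, where the groups overlapped, and above control in the PHT Ptpmt1 knockouts. Its log2 difference from control was -0.86 in FST and 1.18 in PHT, and neither passed the test. The gap of -2.04 was not tested because the tables were normalized separately. In the doubles against control the Rnf17 difference was 1.69 in FST, against -0.07 in PTGC, a gap of 1.76. In PHT it was 2.04, against -0.07 in PTGC, a gap of 2.12. Neither gap was tested. The PTGC difference was 0.3 without PTGC control replicate 3, which read 211.4. Within FST, Ptpmt1 loss went with 0.97 for Rnf17 on the Eif2a mutant background and with -0.86 on the control background, a gap of 1.82 that was not tested because the contrast includes the doubles that chose the gene.

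Rec8 in the doubles against control was -1.12 in FST and 0.46 in PHT, a gap of -1.59, and the difference was not tested. Within PHT, Ptpmt1 loss went with -1.43 for Rec8 on the Hri knockout background and with 0.71 on the control background, a gap of -2.14 that was not tested for the same reason as in Rnf17.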

How the results depend on the processing

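No paired analysis was possible because the labels carry no replicate numbers shared between groups. Of the counts of members called, the 1 call in the PHT Hri knockouts against control became 0 with no filter and with a sex term, and 0 to 1 when 1 library was left out. Among other piRNA and meiotic genes, DESeq2 called 1 in the FST doubles against control (4930447C04Rik), 1 in the PHT doubles against the Ptpmt1 knockouts (Tdrd9, at -3.09) and 3 in the PTGC doubles (Mei4, Mov10l1 and Sgo2a). Leaving out 1 library gave 0 to 1 in the FST Ptpmt1 knockouts against control, 0 to 1 in the FST doubles against control, 0 to 1 in the PHT Ptpmt1 knockouts against control, 0 to 1 in the PHT doubles against the Ptpmt1 knockouts (Tdrd9 at -2.68 without either Hri knockout) and 0 to 3 in the PTGC doubles. The FST and PHT knockout calls were both Ccnb1ip1, at -1.39 without FST Ptpmt1 knockout replicate 3 and at 1.09 without PHT control replicate 1.

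With a sex term the PHT doubles against control were 0.96 for Rec8 and -0.33 for Gtsf1. Leaving out 1 library gave -0.27 to 0.26 for Gtsf1 in that comparison, and, in the PHT doubles against the Ptpmt1 knockouts, 0.63 to 1.09 for Rnf17 and -0.66 to 0.16 for Rec8, where the ends are the fits without either double. Signs changed for Rec8 in the FST Ptpmt1 knockouts against control (-0.91 to 0.00 with 1 library left out, the upper end without Ptpmt1 knockout replicate 2) and in the Eif2a mutants (0.24 with a sex term, 0.11 without Eif2a mutant replicate 2). They changed for Gtsf1 in the PHT Ptpmt1 knockouts (-0.39 to 0.02 with 1 library left out, the upper end without Ptpmt1 knockout replicate 2) and in the Hri knockouts (-0.06 with a sex term). With 1 library left out, signs also changed in some comparisons with a double. Gtsf1 ran from -0.38 to 0.56 in the FST doubles against the Eif2a mutants. In the PTGC doubles against control, Rnf17 ran from -0.33 to 0.3 and Rec8 from -0.35 to 0.09. The cause was not tested. Without FST double replicate 2 and Eif2a mutant replicate 1, chosen after seeing the data, Rnf17 stood at 1.49 in the doubles against control. Against the Ptpmt1 knockouts it stood at 2.34. A lone sample left in a group is assumed to vary like the other groups.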
